A study of Mus musculus with 24 samples.

Results

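The genes described here are 37 mouse genes of DNA replication and S phase. They were chosen by name from what they are known to do and by no cut on measured values, though with earlier results of these data known. Of the 29758 gene symbols counted in the series, 15719 passed the filter on low counts, and 37 of 37 replication genes were among them. They cover origin licensing (Orc1, Orc6, Cdc6, Cdt1), the MCM2-7 helicase, activation of that helicase (Mcm10, Cdc45, Gins1 to Gins4), DNA polymerase alpha-primase (Pola1, Pola2, Prim1, Prim2), the nucleases Fen1 and Exo1, nucleotide supply and uracil removal (Rrm1, Rrm2, Tyms, Tk1, Dut, Ung), chromatin assembly and DNA methylation (Chaf1a, Chaf1b, Uhrf1, Dnmt1, Hells), the histone mRNA binding protein gene Slbp, and the regulators of entry into S phase Ccne1, Ccne2 and E2f1. None of the 37 genes passed edgeR's test for a daily rhythm in all 24 libraries, where 0.668% of all genes passed. Ccne2 alone passed with DESeq2 (2.11% of all genes), with limma (0.655%) and without 2 pools that stood apart (0.597%). In the fit shared by the groups the peaks of the 37 genes lay close together, near the change from light to dark (median ZT 11.5). Fitted by group, their median peak was ZT 12.7 in EN, ZT 7.89 in MD and ZT 14.4 in ED. No rhythm within a group passed by edgeR. Of the 37 genes 7 (18.9%) had a lower mean level in MD skin than in ED skin and 0 a higher one. Of all genes 11.8% were lower and 23.0% were called in either direction. Without the MD pool of ZT16 alone 1 of the 7 was called, and calls over all genes fell from 3608 to 1981.

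Before a cell copies its DNA, the origin recognition complex with CDC6 and CDT1 loads the MCM2-7 helicase onto origins during G1, and CDC45 and the GINS complex turn the loaded helicase on in S phase. E2F transcription factors drive many of these genes together at the G1/S border, so their RNA is high in late G1 and S phase and low in resting cells. In telogen skin, where hair follicles rest, most dividing cells are keratinocytes of the basal epidermis, and mouse epidermis is known for a daily rhythm in the number of cells in S phase.

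RNA was sequenced from whole skin of the back of male wild type C57BL/6NCrl mice aged 8 weeks, whose skin was in telogen. All mice lived in 12 h of light and 12 h of dark, with lights on at ZT0 (zeitgeber time, hours since lights on), had free water and regular chow, and had restricted feeding for 18 to 21 days. EN mice could eat from ZT12 to ZT16, MD mice from ZT5 to ZT9 and ED mice from ZT0 to ZT4, so no group ate freely. Each group had 8 libraries, 1 every 4 h between ZT0 and ZT28, and each library was made from RNA pooled from 2 to 4 biological replicates. With 1 pool per group and time, the error of every test came from how far the pools lay from a fitted daily curve. A p-value here reflects how much single pools scatter and how far the fitted curve misses their course. In a fit shared by the groups, differences between groups in the timing or size of a rhythm also count as error.

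Reads over exons came to between 13222667 and 26316851 per library, of which the 37 genes held between 7535 and 15009. Levels in CPM are reads of the gene scaled by the library's total over the genes tested, after adjustment of that total by TMM. The ED pool of ZT24 and the EN pool of ZT0 stood apart, with summed hair shaft and growing follicle markers of 980 and 2739 CPM, against 20.5 to 76.4 CPM in the other 22 libraries. Results are therefore also given without these pools. Basal keratinocyte markers were present in every library, at summed levels of 5801 to 7864 CPM. The clock genes Dbp and Nr1d1 had a 24 h rhythm by the time labels within each group (edgeR, largest adjusted p = 3.98e-06, Nr1d1 in ED). Their peak times differed between groups. Dbp peaked at ZT 9.02 ± 0.241 in EN, ZT 4.11 ± 0.336 in MD and ZT 12.4 ± 0.382 in ED (± standard error). Nr1d1 peaked at ZT 5.96 ± 0.238, ZT 1.44 ± 0.343 and ZT 9.38 ± 0.339. For both genes edgeR called a departure from a rhythm shared in ZT (adjusted p = 4.64e-09 and 7.19e-09) and from one shared in hours since food (4.28e-11 and 3.38e-10). Neither gene passed edgeR's test for a rhythm shared in ZT (adjusted p = 0.0603 and 0.104), so that test can miss genes that cycle within each group.

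What the genes share in sequence was read from the RefSeq promoters of GRCm38.p6, 300 bases from 250 before to 50 after each start. A promoter was held for 30 of the 37 genes. Those of Mcm4, Gins1, Gins2, Gins4, Prim2, Exo1 and Ccne2 were not used here. The E2F words TTTGGCGC, TTTCCCGC, TTTGCCGC and TTTCGCGC, searched on both strands and free to overlap each other, were found in 12 of the 30 genes (40%), against 704 of 27025 genes with a promoter (2.605%). These 12 were Orc1, Cdc6, Cdt1, Mcm3, Mcm5, Mcm6, Mcm7, Gins3, Pola1, Uhrf1, Dnmt1 and Hells. A list of 25 mitosis genes, set beside the replication genes throughout, had an E2F word in 1 of its 22 promoters (4.55%). The words of the cell cycle homology region, TTTGAA and TTCGAA, ran the other way, in 18 of 22 mitosis promoters (81.8%), in 6 of 30 replication promoters (20%) and in 21.7% of all genes. The CCAAT box was in 18 of 30 replication promoters (60%), 20 of 22 mitosis promoters (90.9%) and 41.1% of all genes, and the E box CACGTG in 4 of 30 replication promoters (13.3%), 0 of 22 mitosis promoters and 8.09% of all genes. A match is a description of letters, and no match says only that these letters are not in this window. The promoters of 3 helicase genes are shown because they carry the E2F words, in capitals, in 3 arrangements. In Mcm6 (chr1:128359656-128359955, minus strand) the words began 110, 106 and 47 bases before the start, in Mcm5 (chr8:75109259-75109558, plus strand) they overlapped 153 and 149 bases before it, and in Mcm3 (chr1:20820263-20820562, minus strand) both lay after it.
Mcm6: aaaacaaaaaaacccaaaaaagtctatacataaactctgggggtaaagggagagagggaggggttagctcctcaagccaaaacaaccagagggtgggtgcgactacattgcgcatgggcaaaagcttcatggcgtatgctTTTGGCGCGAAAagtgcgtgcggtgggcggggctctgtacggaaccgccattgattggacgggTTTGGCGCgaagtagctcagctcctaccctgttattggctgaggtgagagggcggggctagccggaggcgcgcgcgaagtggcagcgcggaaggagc
Mcm5: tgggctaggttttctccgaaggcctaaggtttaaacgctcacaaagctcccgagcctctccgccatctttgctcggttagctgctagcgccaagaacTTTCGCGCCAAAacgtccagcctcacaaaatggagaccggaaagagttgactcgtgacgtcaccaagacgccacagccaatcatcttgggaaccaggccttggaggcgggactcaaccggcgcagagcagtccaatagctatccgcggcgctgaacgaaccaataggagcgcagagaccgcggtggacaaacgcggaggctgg
Mcm3: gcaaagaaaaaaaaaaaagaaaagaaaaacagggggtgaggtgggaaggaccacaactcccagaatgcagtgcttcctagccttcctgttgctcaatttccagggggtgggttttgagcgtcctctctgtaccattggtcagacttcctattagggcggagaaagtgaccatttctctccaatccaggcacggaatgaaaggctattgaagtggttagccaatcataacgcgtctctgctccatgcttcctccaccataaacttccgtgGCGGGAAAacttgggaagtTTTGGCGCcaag
The promoter of Aspm, a spindle gene and the mitosis gene with the smallest p for a daily rhythm (chr1:139454523-139454822, plus strand), is shown for contrast, with its 3 CCAAT boxes and its TTTGAA word in capitals.
Aspm: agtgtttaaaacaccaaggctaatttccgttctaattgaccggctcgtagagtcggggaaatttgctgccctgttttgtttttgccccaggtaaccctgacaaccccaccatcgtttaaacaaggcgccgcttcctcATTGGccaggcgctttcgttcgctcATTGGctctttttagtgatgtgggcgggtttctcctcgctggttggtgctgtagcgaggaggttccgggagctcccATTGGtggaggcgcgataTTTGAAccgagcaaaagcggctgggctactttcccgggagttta

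Levels differed widely among the 37 genes. Per length, on the scale of the deposited RPKM values, the highest level was that of Dnmt1, the maintenance DNA methyltransferase, at 21.2 ± 2.21 RPKM (SD, n = 24 libraries), followed by Mcm6 at 15.9 ± 2.99 RPKM, the ribonucleotide reductase subunit gene Rrm1 at 14.3 ± 1.95 RPKM and Mcm7 at 13.8 ± 1.59 RPKM. The lowest was Orc1, the largest subunit of the origin recognition complex, at 0.440 ± 0.218 RPKM, with 5 to 35 reads per library. Across the 24 libraries the highest CPM was between 1.47 times (Dnmt1) and 8.80 times (Orc1) the lowest. Dnmt1 had 83.0, 93.4 and 99.3 CPM as lowest, median and highest of the EN libraries, 87.5, 101 and 115 CPM of the MD libraries, and 79.9, 98.9 and 117 CPM of the ED libraries. The range of Dnmt1 in each group overlapped those of both other groups.

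**Figure D1:**
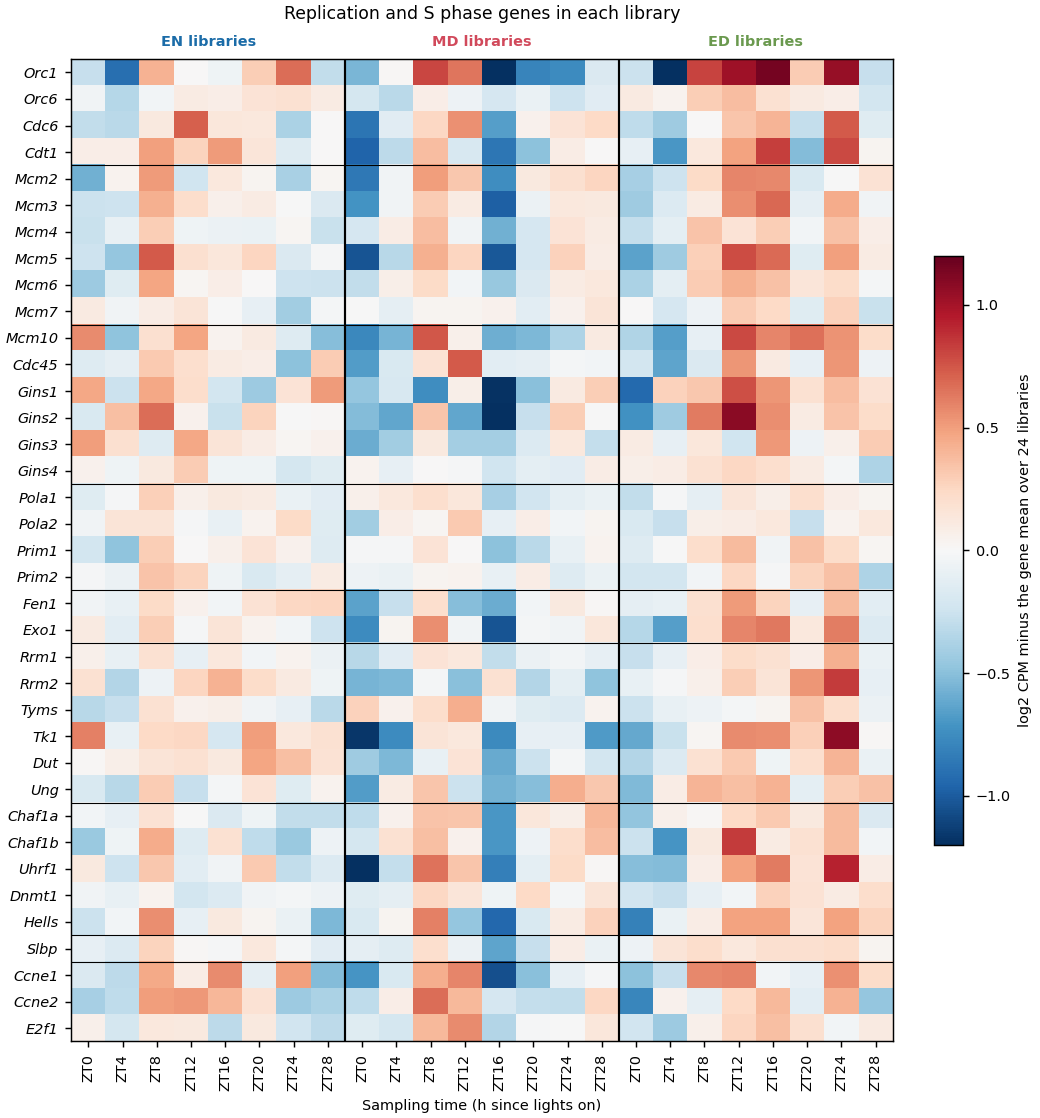
Each row is 1 of the 37 genes, in the order of their roles, and each column 1 library, with EN, MD and ED libraries from left to right and by sampling time within each group. Colour gives log2 CPM minus the gene's mean over the 24 libraries, and values past the ends of the colour bar take its end colour. The EN and MD pools of ZT8 and the ED pools of ZT12, ZT16 and ZT24 are mostly red, and the MD pools of ZT0 and ZT16 and the ED pool of ZT0 mostly blue.

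The first question was whether the genes varied with time of day in a way shared by the groups. By edgeR's quasi-likelihood test with Benjamini-Hochberg adjustment over all genes, 0 of 37 passed for a shared 24 h rhythm against ZT (smallest adjusted p = 0.117), against 0.668% of all genes. At an unadjusted p under 0.05 there were 6 of 37 (16.2%), against 14.7% of all genes. That share moved with single pools: it was 13 of 37 (35.1%, against 14.4% of all genes) without the 2 pools with high hair markers, and 15 of 37 (40.5%, against 15.2%) without the ED pool of ZT24 alone. With the library code of the labels (L1 to L8) as a factor, 0 of 37 passed and 9 of 37 (24.3%) had an unadjusted p under 0.05, against 7.13% of all genes. Most codes held successive sampling times of 1 group, such as L1 for MD at ZT0, ZT4 and ZT8. The factor therefore also takes up part of any change with time of day, and the 2 cannot be fully told apart. DESeq2 called 1 of 37, Ccne2, and so did edgeR without the 2 pools and limma on the RPKM values (adjusted p = 0.0268, 0.0363 and 0.0372). Of all genes these called 2.11%, 0.597% and 0.655%. Leaving out the ED pool of ZT24 alone also gave Ccne2, with 107 calls over all genes. The median amplitude from mean to peak was 0.17 (log2) for the 37 genes, against 0.091 for all genes tested.

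The times of the fitted peaks were less scattered than those of all genes. The median peak of the 37 genes was at ZT 11.5, with the middle of the range between ZT 10.1 and ZT 12.9, and 32 of 37 peaks (86.5%) fell from ZT8 to ZT16, against 33.5% of all genes. The exception outside ZT6 to ZT18 was Gins3, a subunit of the GINS complex, whose amplitude was 0.02 ± 0.077. The 25 mitosis genes peaked at a median of ZT 22.1, with 0 of 25 peaks from ZT8 to ZT16, and 17 of the 25 passed the test for a shared rhythm. These mitosis values are from all 24 libraries, including the 2 pools with high hair markers. The mean of the mitosis genes (log2 CPM minus the gene mean) was highest of its group in those pools, 1.11 in ED at ZT24 and 0.56 in EN at ZT0. At the same clock time on the other day it was 0.20 in ED and 0.29 in EN. Without the 2 pools with high hair markers the median peak of the 37 genes was ZT 11.4 and their median amplitude 0.20. Because the 37 genes were measured in the same libraries, a high or low pool moves many of them together, and their peaks are no independent sightings of a peak time.

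**Figure D2:**
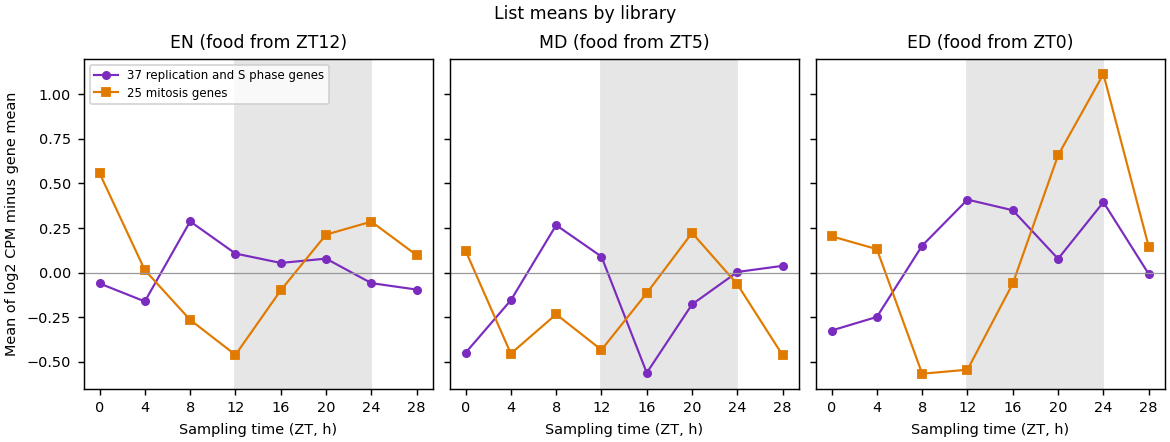
Mean over the genes of each list of log2 CPM minus the gene's mean over all 24 libraries, by sampling time (ZT, h), with 1 panel each for EN, MD and ED and the dark phase in grey. Purple circles are the 37 replication and S phase genes and orange squares 25 mitosis genes. The replication genes are highest at ZT8 in EN (0.29) and MD (0.27) and at ZT12 in ED (0.41), while the mitosis genes are low there (-0.26, -0.23 and -0.54).

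Most genes had their highest value in a few pools. In EN the pool of ZT8 was the highest of its group for 21 of 37 genes, and in MD the pool of ZT8 for 21. In ED the pool of ZT12 was the highest for 14, that of ZT24 for 11 and that of ZT16 for 10. The lowest pools were MD ZT16 for 17 genes, MD ZT0 for 16, ED ZT0 for 19 and ED ZT4 for 11, while in EN no pool was lowest for more than 8.

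Repeats of the same clock time a day later differ by the scatter of both pools and by any change between days, which cannot be told apart. In ED the 37 genes were a median of 0.75 (log2) higher at ZT24 than at ZT0, with 34 of 37 higher, and the ZT24 pool was the one with high hair markers. In MD, where neither pool stood apart in these markers, the same difference was 0.40, with 30 of 37 higher. In EN the difference was 0.01, with 20 of 37 higher, although the EN pool of ZT0 had the highest hair markers. Between ZT28 and ZT4 the medians were 0.02 in EN, 0.19 in MD and 0.26 in ED. The differences between ZT24 and ZT0 were larger than the median amplitude from mean to peak of the genes in ED (0.24) and in MD (0.32). Such an amplitude is less than the full swing from lowest to highest point, so a larger difference need not exceed that swing.

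Among the regulators of S phase entry, Ccne2, one of the genes for cyclin E, the cyclin of the G1/S border (chromosome 4, 11190433 to 11204779), had the smallest p of the 37 genes. It had 4.57, 6.05 and 8.98 CPM as lowest, median and highest of the EN libraries, 5.04, 6.01 and 10.003 CPM of the MD libraries, and 3.59, 6.14 and 8.37 CPM of the ED libraries. In EN the libraries from ZT8 to ZT20 held the 4 highest values, and in MD the 2 highest were those of ZT8 and ZT12. The shared amplitude was 0.36 ± 0.093 with a peak at ZT 11.8 ± 1.01 (edgeR, adjusted p = 0.117), and 0.42 ± 0.084 with adjusted p = 0.0363 without the 2 pools. Ccne1, the other cyclin E gene, and E2f1, an activating E2F, peaked at ZT 10.1 and ZT 12.3 and did not pass.

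**Figure D3:**
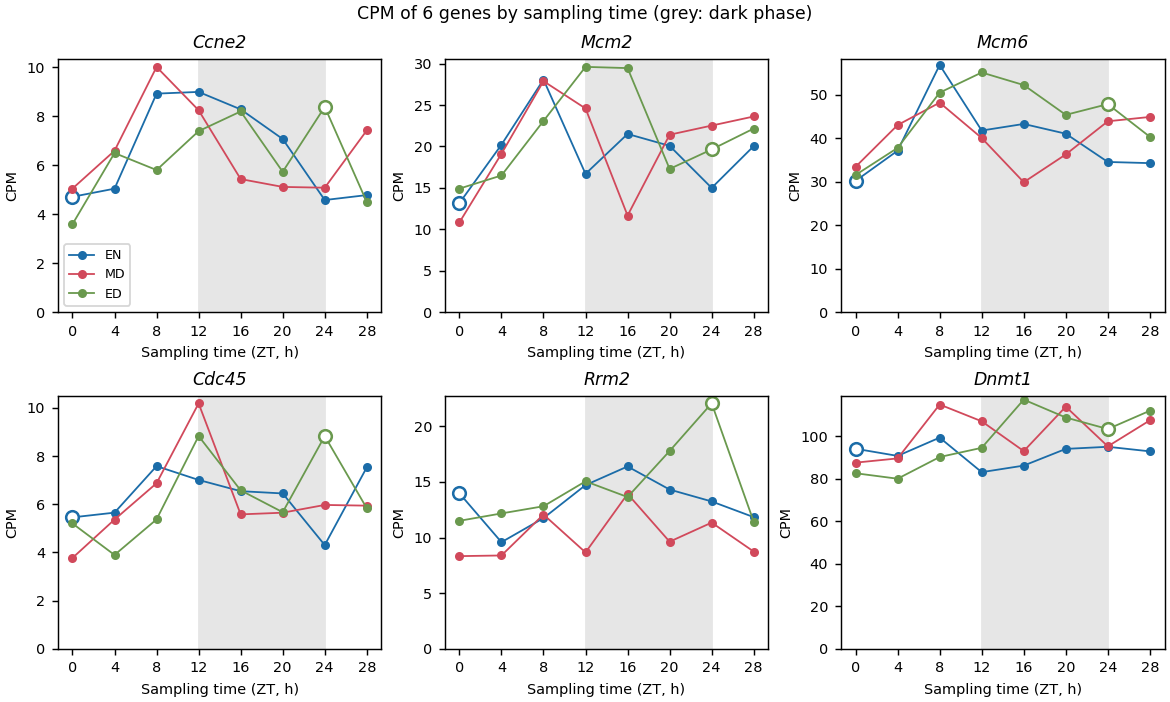
CPM of 6 genes against sampling time (ZT, h), with 1 point per library, EN in blue, MD in red and ED in green, the dark phase in grey, and open circles for the EN pool of ZT0 and the ED pool of ZT24. Ccne2, Mcm2 and Mcm6 are high at ZT8 in EN and MD, with Mcm2 and Mcm6 highest at ZT12 in ED, and Rrm2 has its highest value, 22.1 CPM, in the ED pool of ZT24.

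All 6 genes of the MCM2-7 ring, the helicase that unwinds DNA at the fork, peaked from ZT 8.25 to ZT 12.9, and 3 of them (Mcm2, Mcm5 and Mcm6) had an unadjusted p under 0.05. Mcm2 (chromosome 6, 88883474 to 88898780) had the smallest p of the ring. Its lowest, median and highest levels were 13.2, 20.1 and 28.1 CPM in EN, 10.8, 21.97 and 27.9 CPM in MD, and 14.9, 20.9 and 29.6 CPM in ED. Its highest library was that of ZT8 in EN and MD and that of ZT12 in ED, and the ranges of the groups overlapped. The shared amplitude was 0.31 ± 0.108 with a peak at ZT 10.2 ± 1.27 (edgeR, adjusted p = 0.217).

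Among the genes that license origins and then turn the helicase on, peaks ran from ZT 11.004 to ZT 14.1 for licensing and from ZT 7.60 to ZT 18.4 for activation. Cdc6, the helicase loader, had 2.96, 4.06 and 6.44 CPM as lowest, median and highest in EN, 2.06, 4.19 and 5.74 CPM in MD, and 2.87, 3.69 and 6.55 CPM in ED. Its highest pool was that of ZT12 in EN and MD and that of ZT24 in ED, and its amplitude was 0.26 ± 0.114 (edgeR, adjusted p = 0.400). Cdc45, the helicase cofactor, had 4.30, 6.50 and 7.58 CPM in EN, 3.77, 5.80 and 10.2 CPM in MD, and 3.89, 5.75 and 8.83 CPM in ED. It had an amplitude of 0.26 ± 0.090 and peaked at ZT 12.1 ± 1.38 (edgeR, adjusted p = 0.262), and 0.33 ± 0.082 without the 2 pools (adjusted p = 0.0894). Orc1 had the largest amplitude of the 37, 0.37, on 5 to 35 reads per library.

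The other roles varied less. The 4 genes of polymerase alpha-primase, which lays down the first RNA and DNA of each fragment, had amplitudes of 0.085 to 0.096. The catalytic subunit gene Pola1 had 23.7, 26.6 and 32.01 CPM as lowest, median and highest in EN, 19.9, 26.03 and 30.2 CPM in MD, and 21.3, 27.2 and 30.1 CPM in ED, with a shared peak at ZT 10.2 ± 2.05 (edgeR, adjusted p = 0.539). Exo1, an exonuclease of replication and repair, had 2.42, 2.93 and 3.59 CPM in EN, 1.36, 2.83 and 4.30 CPM in MD, and 1.79, 3.26 and 4.55 CPM in ED. Its groups overlapped, and its shared amplitude was 0.16 ± 0.124 (edgeR, adjusted p = 0.671).

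Chaf1b, a subunit of the complex that places histones on new DNA, had 4.02, 5.14 and 7.58 CPM as lowest, median and highest in EN, 3.37, 6.01 and 7.17 CPM in MD, and 3.35, 5.98 and 9.99 CPM in ED. Its highest library was that of ZT8 in EN and of ZT12 in ED, with a shared peak at ZT 9.86 ± 1.93 (edgeR, adjusted p = 0.441). A later peak was that of Rrm2, the ribonucleotide reductase subunit that is made in S phase, whose shared peak was at ZT 17.3 ± 1.31 with an amplitude of 0.22 ± 0.075 (edgeR, adjusted p = 0.261). Without the 2 pools it peaked at ZT 16.1 ± 1.08. Its range, and that of Slbp, are given with their mean levels further on.

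Intron reads come largely from RNA that is not yet spliced, and were tested in the same way. The intron rows of the 37 genes held 2 to 2541 reads per library, and 37 of 37 passed the count filter. None passed for a shared ZT rhythm by edgeR (smallest adjusted p = 0.0753), against 0.370% of the 14585 intron rows tested. DESeq2 called 2 of 37, Ccne2 and Mcm6, against 1.94% of all intron rows. At an unadjusted p under 0.05 there were 13 of 37 (35.1%), against 12.0% of all intron rows, and the median amplitude was 0.21, against 0.085. The median intron peak was at ZT 10.05, with 29 of 37 (78.4%) from ZT8 to ZT16, against 36.4% of all rows. The intron amplitude of Mcm6 was 0.28 ± 0.066 with a peak at ZT 8.88 (edgeR, adjusted p = 0.0753), and its exon amplitude 0.20 ± 0.069 with a peak at ZT 10.6. The intron amplitude of Ccne2 was 0.53 ± 0.124 with a peak at ZT 12.9 (edgeR, adjusted p = 0.0931).

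**Figure D4:**
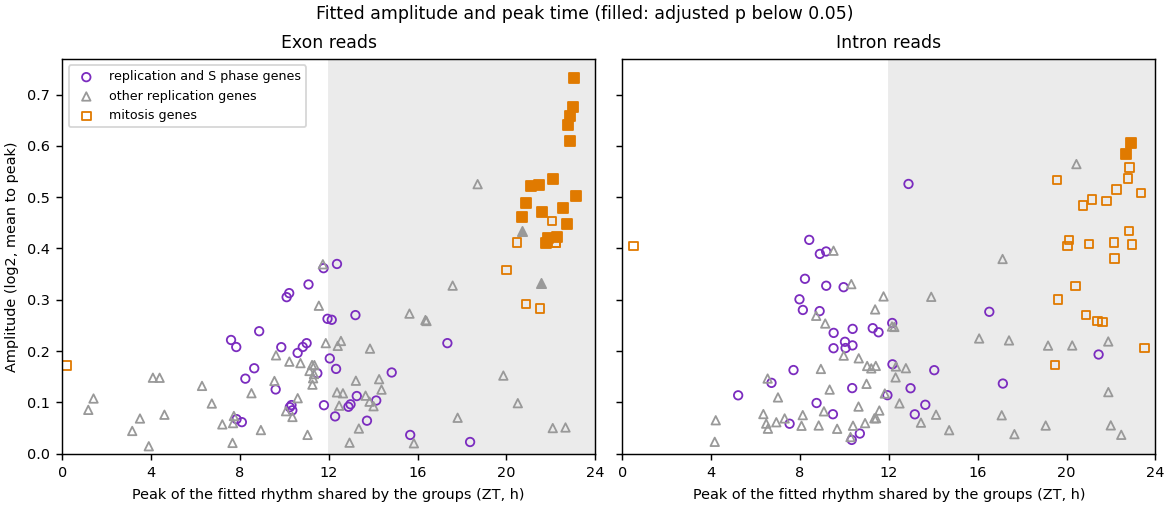
Fitted amplitude (log2, from mean to peak) against peak time (ZT, h) of the rhythm shared by the 3 groups, for exon reads on the left and intron reads on the right. Purple circles are the 37 genes, grey triangles other replication genes and orange squares mitosis genes, filled where the adjusted p is below 0.05. The open purple circles gather around ZT 11.5 (exons) and ZT 10.05 (introns) and the mitosis genes around ZT 22.1 and ZT 21.6.

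Fitted separately, the groups gave 0 of 37 genes with a rhythm each. The background was 1.06% of all genes in EN, 0.942% in MD and 0.719% in ED. At an unadjusted p under 0.05 there were 2 of 37 in EN (5.41%, against 10.8% of all genes), 11 in MD (29.7%, against 15.7%) and 3 in ED (8.11%, against 14.9%). Without the 2 pools these counts became 5 of 37 in EN (13.5%, against 10.3% of all genes) and 17 of 37 in ED (45.9%, against 15.9%). DESeq2 called Ccne2 in EN and in MD and none in ED, against 2.21%, 3.14% and 2.51% of all genes. The median amplitudes were 0.17 in EN, 0.32 in MD and 0.24 in ED, against 0.131, 0.149 and 0.154 for all genes.

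The median peak of the 37 genes lay at ZT 12.7 in EN, ZT 7.89 in MD and ZT 14.4 in ED. Mcm6 peaked at ZT 11.5 ± 1.37 in EN, ZT 6.11 ± 1.395 in MD and ZT 13.2 ± 1.41 in ED, with amplitudes of 0.28 ± 0.098, 0.27 ± 0.101 and 0.28 ± 0.095. Ccne2 peaked at ZT 13.03 ± 1.04, ZT 8.88 ± 1.03 and ZT 14.3 ± 2.03 in EN, MD and ED, with amplitudes of 0.53 ± 0.135, 0.50 ± 0.145 and 0.27 ± 0.134. A difference of rhythm between groups did not pass. The test of departure from a shared ZT rhythm called 0 of 37, against 0.999% of all genes, and 5 of 37 (13.5%) had an unadjusted p under 0.05, against 14.4%. DESeq2 also called 0. For the 37 genes the earlier fitted peaks in MD are a description of the curves, and neither a difference in peak time nor its absence was shown.

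Time since food was the other frame. For a rhythm shared by the groups in hours since food was opened, 0 of 37 passed by edgeR, against 1.29% of all genes, and 0 of 37 had an unadjusted p under 0.05, against 15.6%. DESeq2 also called 0. The median amplitude in that frame was 0.081, against 0.092 for all genes. For departure from such a rhythm edgeR called 0 of 37 (smallest adjusted p = 0.0855), against 1.32% of all genes, and 14 of 37 (37.8%) had an unadjusted p under 0.05, against 14.0%. The genes Ccne2 and Mcm6 were called in that test without the 2 pools (adjusted p = 0.0124 and 0.0485), by DESeq2 and without a filter on low counts. These settings called 1.01%, 3.87% and 1.58% of all genes. Of the 25 mitosis genes edgeR called 19 in all 24 libraries.

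Pools from 3 to 8 h after the opening of food (n = 7) were also set against those taken 19 to 24 h after it (n = 9), with feeding group, time of day and the libraries of 11 to 16 h (n = 8) in the model. edgeR called 0 of 37, against 4.48% of all genes (2.26% higher and 2.21% lower), and 3 (8.11%) had an unadjusted p under 0.05, against 21.0%. Of these the smallest was that of Prim2, the large primase subunit gene, named after its values were seen. Prim2 had 7.70, 9.63 and 10.3 CPM as lowest, median and highest at 3 to 8 h, against 8.56, 9.60 and 12.8 CPM at 19 to 24 h. The fitted difference was -0.28 ± 0.083 (log2, after minus before food, edgeR, adjusted p = 0.0725), and DESeq2 called it (adjusted p = 0.0484). The median difference over the 37 genes was -0.06, against 0.003 over all genes, and its sign turned without the second day (0.05).

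The level averaged over the day gave the calls. Of the 37 genes, 7 were lower in MD than in ED and 0 higher (18.9%), by edgeR with adjustment over all genes, where 11.8% of all genes were called lower and 11.2% higher, 23.0% in all. In EN against MD 3 genes were higher and 0 lower (8.11%), where 15.9% of all genes were called higher and 14.4% lower, 30.2% in all. In EN against ED 0 of 37 and 0.00% of all genes passed, with 0 of 37 and 961 of all genes (6.11%) at an unadjusted p under 0.05, and DESeq2 called 0 of 37. At an unadjusted p under 0.05 there were 18 of 37 (48.6%) for MD against ED, against 35.4% of all genes, and 9 of 37 (24.3%) for EN against MD, against 40.7%. The median difference over the 37 genes was -0.29 (log2) for MD minus ED, with 33 of 37 below 0, and 0.13 for EN minus MD, with 31 of 37 above 0, while the medians of all genes were -0.006 and -0.005. These comparisons share samples: MD is in both. Counted in either direction, the share of the 37 genes was below that of all genes in both comparisons. It was 18.9% against 23.0% for MD against ED and 8.11% against 30.2% for EN against MD. Counting lower genes alone, MD against ED was above the share of all genes (18.9% against 11.8%). That count of lower genes changed with single pools, as given further on.

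**Figure D5:**
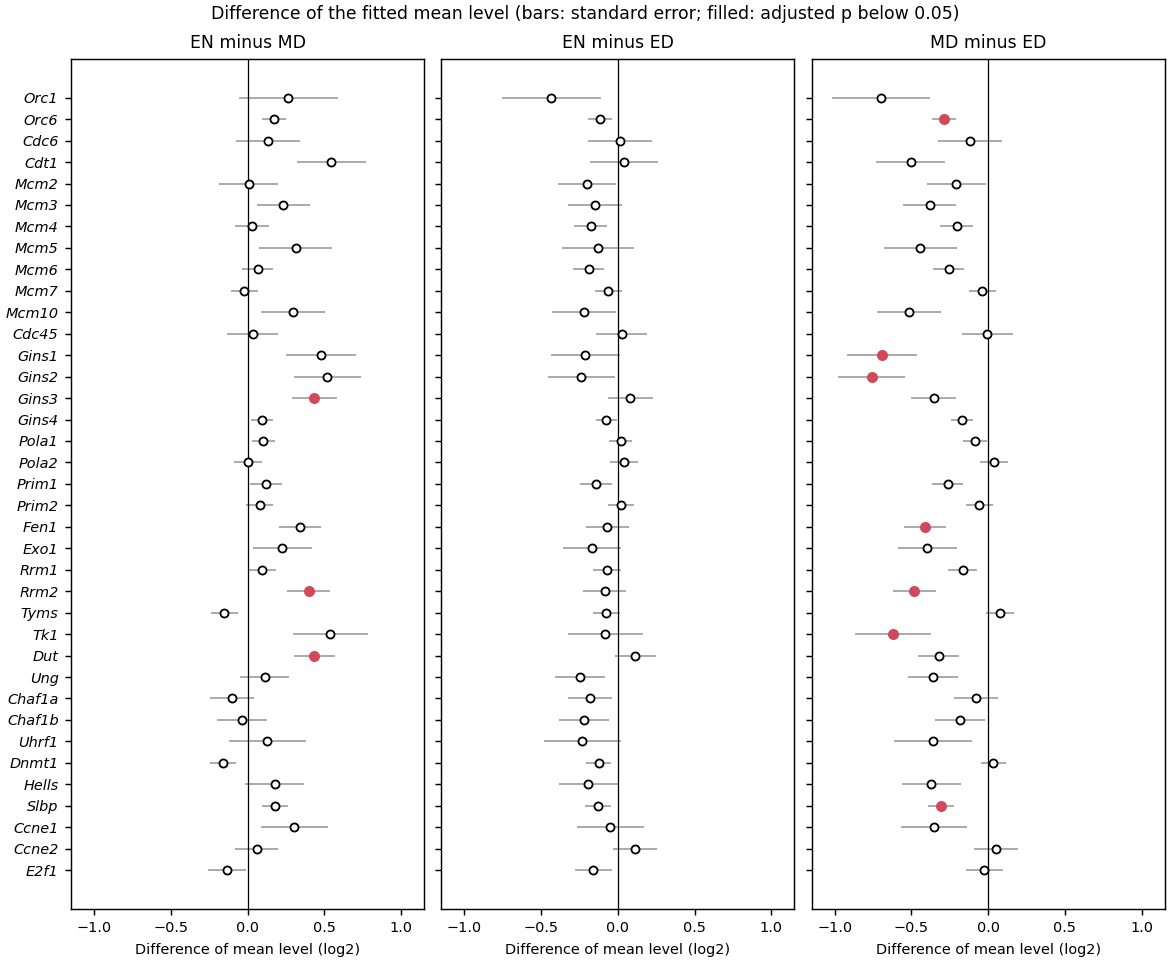
Difference of the fitted daily mean level (log2) for each of the 37 genes, in the order of their roles, with EN minus MD, EN minus ED and MD minus ED from left to right. Points are differences, bars standard errors, and filled points have an adjusted p below 0.05. The filled points are Dut, Gins3 and Rrm2 to the right of 0 in EN minus MD, and Orc6, Gins1, Gins2, Fen1, Rrm2, Tk1 and Slbp to the left of 0 in MD minus ED.

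The 7 genes lower in MD came from 5 roles, 2 of them from nucleotide supply and 2 from the GINS complex. Rrm2 (chromosome 12, 24708254 to 24714146) had 8.33, 9.18 and 13.9 CPM as lowest, median and highest of the MD libraries, against 11.4, 13.2 and 22.1 CPM of the ED libraries, and 9.58, 13.6 and 16.4 CPM in EN. The MD libraries of ZT8 and ZT16 reached into the range of ED, and the rest lay below it. The difference was -0.48 ± 0.140 (edgeR, adjusted p = 0.0110). Tk1, the thymidine kinase of S phase cells, had 2.10, 3.76 and 5.42 CPM in MD, against 3.13, 5.45 and 10.4 CPM in ED, a difference of -0.62 ± 0.245 (edgeR, adjusted p = 0.0486). The highest value of Tk1 was that of the ED pool of ZT24, and without this pool and the EN pool of ZT0 its adjusted p was 0.0846. The call of Tk1 was kept in 6 of the 24 fits that left out 1 library each (adjusted p = 0.0197 to 0.220).

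Gins2 and Gins1, subunits of the GINS complex that joins the helicase, had the largest differences of the 7. Gins2 had 1.66, 3.17 and 5.31 CPM as lowest, median and highest of the MD libraries, against 2.49, 5.11 and 8.98 CPM of the ED libraries, a difference of -0.76 ± 0.219 (edgeR, adjusted p = 0.0130). Gins1 had 0.754, 1.46 and 2.31 CPM in MD, against 0.921, 2.31 and 3.26 CPM in ED, a difference of -0.69 ± 0.226 (edgeR, adjusted p = 0.0299), and its adjusted p was 0.0526 without the 2 pools. With sampling time as a block the adjusted p (edgeR) was 0.0610 for Gins2 and 0.0806 for Gins1. The groups overlapped for both genes.

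Orc6, the smallest subunit of the origin recognition complex, had 10.5, 11.7 and 14.0 CPM as lowest, median and highest of the MD libraries, against 11.3, 14.2 and 17.1 CPM of the ED libraries, a difference of -0.29 ± 0.076 (edgeR, adjusted p = 0.0137). Fen1, the flap endonuclease that trims fragments of the lagging strand, had 6.49, 9.16 and 11.7 CPM in MD, against 9.27, 10.6 and 14.5 CPM in ED, a difference of -0.41 ± 0.138 (edgeR, adjusted p = 0.0322, and 0.0654 without the 2 pools). Slbp, which binds the stem-loop of replication-dependent histone mRNA, had 11.7, 17.0 and 20.8 CPM in MD, against 17.4, 20.4 and 21.1 CPM in ED, a difference of -0.31 ± 0.085 (edgeR, adjusted p = 0.0154). In each of these 3 genes the ranges of the groups overlapped, and the MD pool of ZT16 was the lowest of its group for Slbp and next to the lowest for Fen1.

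In EN against MD the called genes were Dut, Rrm2 and Gins3. Dut, the dUTPase that keeps uracil out of DNA, had 9.21, 10.2 and 12.7 CPM as lowest, median and highest of the EN libraries, against 5.98, 7.71 and 10.2 CPM of the MD libraries, a difference of 0.43 ± 0.133 (edgeR, adjusted p = 0.0141). Only the MD pool of ZT12 reached into the range of EN. Rrm2 differed by 0.40 ± 0.140 (edgeR, adjusted p = 0.0317). Gins3 had 3.07, 3.74 and 4.91 CPM in EN, against 2.24, 2.68 and 3.75 CPM in MD, a difference of 0.43 ± 0.147 (edgeR, adjusted p = 0.0367, and 0.0686 without the 2 pools).

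The calls on mean levels rest on few pools. Without the 2 pools with high hair markers 4 of the 7 were called lower in MD than in ED (Gins2, Orc6, Rrm2 and Slbp). Without the MD pool of ZT16 alone 1 of the 37 genes was called (Rrm2), and without the ED pool of ZT12 alone 2 (Gins2 and Slbp). Calls over all genes fell too, from 3608 to 3068, 1981 and 2382 in these 3 settings. All 24 single omissions gave between 1 and 12 calls among the 37, and between 1981 and 3943 over all genes. DESeq2 called 12 of the 37, all lower in MD, where it called 24.6% of all genes in either direction. Markers of other cells of the skin moved with the groups. The summed fibroblast markers had a median of 36527 CPM in MD (27058 to 42437), against 56235 CPM in ED (41572 to 69828), and 59522 CPM in EN (40452 to 77024). The adipocyte markers had medians of 777 CPM in MD, against 1337 CPM in ED, and 1205 CPM in EN, and the skeletal muscle markers 18421 CPM in MD, against 11015 CPM in ED, and 13651 CPM in EN. The basal keratinocyte markers differed less, with medians of 7210 CPM in MD, against 6939 CPM in ED, and 6889 CPM in EN. Their part in the mean levels was not tested, and in these whole skin libraries fewer cells in S phase and less of each RNA per cell cannot be told apart. A code from L1 to L8 in the labels also ran with the groups, L1 to L3 in MD, L3 to L6 in ED and L6 to L8 in EN. The codes L3 (MD pools of ZT24 and ZT28, ED pool of ZT0) and L6 (ED pool of ZT28, EN pools of ZT0 and ZT4) were the ones that held 2 groups. A fit with the code beside the group and its rhythm, which left 8 residual degrees of freedom, called 0 of 37 and 0 of all genes in each of the 3 comparisons. At an unadjusted p under 0.05 it gave 0 of 37 in each, against 5.61% of all genes for MD against ED, 4.38% for EN against MD and 2.48% for EN against ED. By the design alone its standard errors were 3.79 times those without the code for MD against ED and EN against ED, and 5.69 times for EN against MD. The median difference of the 37 genes in that fit was 0.08 for MD minus ED (16 below 0 and 21 above) and -0.17 for EN minus MD (23 below 0 and 14 above).

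Other genes of replication, a list of 60 beside the 37, gave 2 with a shared ZT rhythm, against the 0.668% of all genes. These were Ccna2, the gene for cyclin A2 of S phase and G2, with a peak at ZT 20.7 ± 0.662 and an amplitude of 0.43 ± 0.081 (edgeR, adjusted p = 0.0168), and E2f2, an activating E2F, with a peak at ZT 21.6 ± 0.705 and an amplitude of 0.33 ± 0.065 (edgeR, adjusted p = 0.0234). Rnaseh2b, a subunit gene of the nuclease that removes ribonucleotides from DNA, peaked at ZT 11.6 ± 0.893 (edgeR, adjusted p = 0.0645). The median peak of the 60 was at ZT 11.5, with 35 of 60 (58.3%) from ZT8 to ZT16. In mean level 7 of the 60 (11.7%) were lower in MD than in ED and 0 higher, against 11.8% of all genes lower, and 8 (13.3%) were higher in EN than in MD and 0 lower, against 15.9% of all genes higher.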

How the data were processed

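One deposited table gives raw counts of reads in whole numbers for 31872 gene models, each with an exon, an intron and an antisense row, per the file headers. The submitters' processing notes name TopHat2, SAMtools, HOMER and mm10 and give no versions. The treatment of reads that match several places is not stated in those notes. A second deposited table holds RPKM values made by the authors with cqn, per the file name. Where rows shared a symbol, the one with most reads was used, for 29758 symbols in all. Columns of no sample numbered 0.

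Genes were kept by filterByExpr of edgeR 4.0.16 (minimum count 10, minimum total 15, by feeding group), scaled by TMM and tested with the quasi-likelihood F test in R 4.3.3, with Benjamini-Hochberg adjustment over 15719 exon or 14585 intron rows and a threshold of 0.05. The shared rhythm was a cosine and a sine term of 24 h (19 residual degrees of freedom), the rhythms and mean levels of each group came from 1 model with a mean, cosine and sine per group (15), and the comparison by time since food had 17. Amplitudes, peak times, differences and their errors were computed by least squares from log2 CPM (prior count 2). The scripts were tested on simulated data. Alternatives were DESeq2 1.42.0, limma 3.58.1 on log2(RPKM + 0.1), no filter, other sets of libraries, sampling time as a block, clock time as a factor and the library code as a factor. The leave-one-out fits and the fit of mean levels with the library code were chosen after seeing the data.

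The members and lists were chosen with earlier results of these data known. Full values are given for each gene called by edgeR in any test of the 24 libraries, for the gene with the smallest shared ZT p in each role and for the highest gene by mean CPM. Of the other lists at most 5 genes with the smallest p are named, and Dbp and Nr1d1 as a check of the time labels within each group. Gene and promoter coordinates are those of RefSeq on GRCm38.p6, matched by symbol for 37 genes and 30 promoters. Counts of reads are not counts of independent molecules.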

Additional observations from a re-analysis of the deposited data

Results flagged for a closer look

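Of 111 sets of 8 libraries (each of the 37 genes in each feeding group), 5 had a lowest library far from the other 7. About 1 in 20 sets would be marked by chance, so this number is near what chance gives. In EN, Orc6 had 10.4 CPM in the pool of ZT4, against 12.8 CPM in the next lowest pool, and Mcm7 had 23.5 CPM in the pool of ZT24, against 29.3 CPM. In ED, Gins1 had 0.921 CPM in the pool of ZT0, against 2.10 CPM in the next lowest pool, Hells, a chromatin remodelling factor, had 4.79 CPM in the same pool, against 8.01 CPM, and Gins4 had 11.6 CPM in the pool of ZT28, against 14.8 CPM.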

How the results depend on the processing

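Counts below are of the 37 genes with an adjusted p under 0.05. For the shared ZT rhythm the count was 0, and 1 without the pools of ED at ZT24 and EN at ZT0, 1 with DESeq2, 1 with limma on RPKM and 0 with the library code as a factor, where 18 of all genes passed, against 105 without it. Of all genes 94 passed without these pools, 332 with DESeq2 and 103 with limma. Most library codes joined successive times of 1 group, so the fit with the code also takes up part of any daily change. For departure from a shared food rhythm the count was 0, and 2 without these pools, 2 with DESeq2, 2 without a filter on low counts and 1 with limma. Calls over all genes were 208, 159, 608, 348 and 232 in that order. DESeq2 gave 1 for the rhythm in MD, 1 for the rhythm in EN, 1 for time since food and 2 for introns, where edgeR gave 0. Over all genes DESeq2 called 494, 348, 1081 and 283 there, against 148, 166, 704 and 54 by edgeR. For MD minus ED the count was 7, and 4 without the 2 pools, 4 without the second day and 12 with DESeq2, which added Cdt1, Mcm10, Mcm6, Orc1 and Prim1. The shares of all genes called were 23.0%, 19.5%, 18.4% and 24.6% in that order. For EN minus MD the count was 3, and 5 without the 2 pools, 6 without the second day and 5 with DESeq2. The shares of all genes were 30.2%, 29.6%, 22.6% and 31.5%. With sampling time as a replicate block, which pairs pools of the same time, the counts were 6 for MD minus ED, 5 for EN minus MD and 0 for EN minus ED, and 0 for both departures. The block called 19.7%, 28.8% and 0% of all genes in the 3 mean level comparisons. For MD minus ED the block kept Fen1, Orc6, Rrm2, Slbp and Tk1, lost Gins1 and Gins2 and gained Dut. The pools of a time share only that time, and no source says that they share animals. Leaving out each library in turn gave 0 to 1 for the shared ZT rhythm, 1 to 12 for MD minus ED and 1 to 7 for EN minus MD. For MD minus ED the count was 1 without MD ZT16, 2 without ED ZT12, 4 without ED ZT24, 11 without MD ZT20 or MD ZT24 and 12 without ED ZT0. Calls over all genes there were 1981, 2382, 3113, 3828, 3757 and 3537, against 3608 with all 24 libraries. For EN minus MD the count was 1 without EN ZT12, EN ZT16, MD ZT0, MD ZT4 or MD ZT16, 2 without EN ZT0, EN ZT8, EN ZT28, MD ZT12 or MD ZT28, 5 without EN ZT4 or MD ZT20, 6 without MD ZT8 or ED ZT24, and 7 without MD ZT24. Calls over all genes ran from 3167 (without MD ZT16) to 4996 (without EN ZT4), against 4748 with all 24 libraries. No called difference changed its sign when 1 library was left out. With the library code beside the feeding group the count was 0 for MD minus ED and 0 for EN minus MD. The sign turned there for Gins1 (0.23), Gins2 (0.31), Rrm2 (0.66), Slbp (0.083) and Tk1 (0.28) in MD minus ED, and for Dut (-0.033) and Rrm2 (-0.57) in EN minus MD. Of the values of single named genes under the alternatives other than leaving out 1 library, 102 kept their side of the threshold, 18 lost it, 3 gained it and these 7 changed sign. The median of all genes moved by less than 0.1 (log2) under each scaling. The cause of these changes was not tested. Depth limits Orc1, Gins1, Ccne1 and Exo1 most, with medians of 18, 34.5, 33.5 and 53 reads per library.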

Other observations

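The 12 genes with an E2F word in their promoter had a median amplitude of 0.19 (log2, shared ZT rhythm, 0.02 to 0.37) and a median peak at ZT 11.5, against 0.14 (0.062 to 0.31) and ZT 11.2 in the 18 genes without one. The 7 genes with no promoter here had a median amplitude of 0.16 and a median peak at ZT 11.5. These values are a description, with no test.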
